A study of Homo sapiens with 24 samples.

Results

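The 36 genes described here are the 13 mRNAs encoded by the human mitochondrial genome and 23 nuclear genes for the proteins that replicate mitochondrial DNA, transcribe it and process its RNA. They were taken by name from a table of 60655 genes, and all 36 were found and tested. They were measured in 24 poly(A)-selected RNA-seq libraries of NB4, a line of acute promyelocytic leukaemia (APL) that carries the PML-RARA fusion, and of HL-60, an acute myeloid leukaemia line without it. Each line is given as wild type and was treated for 48 h with all-trans retinoic acid plus arsenic trioxide (ATRA+ATO), with ATRA at 1 µM or with ATO at 0.8 µM, or was left untreated, with 3 libraries in each of the 8 groups. ATRA drives myeloid differentiation, and ATO leads to degradation of PML-RARA. All groups were grown in RPMI with serum; how much of each drug went into the combination and how long untreated cells were cultured are not in the labels. The design sets the combination and each drug against untreated cells of an APL and of another myeloid leukaemia line.

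Mitochondrial DNA is a small circle that is transcribed from both strands into long precursors. The heavy-strand promoter gives all of the mRNAs but MT-ND6, which comes from the light strand. POLRMT, the mitochondrial RNA polymerase, starts transcription with TFAM, which also packages the DNA, and TFB2M, and TEFM keeps the polymerase elongating. The precursors are cut at their tRNAs by RNase P, of which TRMT10C and HSD17B10 are subunits, and by ELAC2, and the mRNAs are then polyadenylated by MTPAP and held stable by LRPPRC with SLIRP. All of these proteins are made from nuclear genes and imported, so the mRNAs and their machinery are transcribed in separate compartments. The mRNAs encode subunits of complexes I, III, IV and V of oxidative phosphorylation.

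Library totals ran from 37811652 to 57795273 counts, and levels are given as scaled CPM, CPM being counts scaled to library sizes corrected by the trimmed mean of M-values. The labelled cell type held for MPO, high in untreated NB4 (8765 ± 349, SD, n = 3) and HL-60 cells (2338 ± 127), while ELANE was at or below 0.276 in every NB4 library. The 7 markers of promyelocytes and myeloblasts summed to 2513 to 3221 with ATRA+ATO, 6430 to 7164 with ATRA and 8063 to 8112 with ATO in NB4, against 9473 to 10200 untreated. In HL-60 they summed to 421 to 513 with ATRA+ATO, 1503 to 1617 with ATRA and 2258 to 2394 with ATO, against 3891 to 4375 untreated. MPO made up most of the sum in untreated cells of both lines, so the sums do not show whether each other marker fell. The differentiation markers ITGAM, CD38 and NCF1 summed to 2762 to 3023 with ATRA+ATO, 1823 to 2407 with ATRA and 148 to 160 with ATO in NB4, against 93.3 to 97.1 in untreated cells, and in HL-60 to 850 to 975 with ATRA+ATO, 882 to 888 with ATRA and 80.5 to 82.9 with ATO, against 39.4 to 46.3 in untreated cells. CD79A, a part of the B cell receptor, had 31.5, 35.1 and 32.6 scaled CPM with ATRA+ATO, 11.1, 9.23 and 11.8 with ATRA and 7.68, 6.59 and 6.83 with ATO in NB4, against 1.68, 1.73 and 1.85 in untreated cells, while MS4A1, another B cell gene, was at 0 in all libraries. In HL-60 CD79A was at most 2.92 in any library. The marker lists of T cells, erythroid cells, epithelium and fibroblasts each summed to at most 19.3 in any library, with HBB and COL1A2 at 0 throughout, and the part of these genes in the results was not tested. The 3 libraries of a group are called batches in the labels and no label states separate cultures, so the p-values cover the spread among those libraries alone, which may be technical. Nuclear copies of the mitochondrial genome, of which 404 are listed, held at most 0.629% of the counts of copies and mRNAs together, and MTATP6P1 had counts equal to 6.49 to 9.42% of those of MT-ATP6.

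The ends of the mRNAs bear on how these libraries see them, since the libraries were made by oligo(dT) selection. Of the 13 mRNAs, 6 have lengths that are no multiple of 3 in GENCODE v29: 5 end with 1 base of a stop codon and 1 with 2, and the poly(A) tail completes the codon. The last 20 bases of these 6 and of 3 others are shown 5′ to 3′ (GRCh38, chromosome M), with the last bases of the reading frame, the stop codon or the part of it that the genome encodes, in capitals.
MT-ND1: agcattccccctcaaaccTA
MT-ND2: ttttatactaataatcttaT
MT-ND3: aggattagactgaaccgaaT
MT-ND4: cattaccgggttttcctctT
MT-CYB: caaaatactcaaatgggccT
MT-CO3: catctattgatgagggtctT
MT-CO2: ggcccgtatttaccctaTAG
MT-CO1: ccgtatacataaaatctAGA
MT-ND6: agattgctcgggggaatAGG
MT-ND6 is on the minus strand (chrM:14149-14673) and MT-CO1 on the plus strand (chrM:5904-7445), and both end in the unusual stops AGG and AGA. MT-ND6 is known to lack a poly(A) tail of the usual kind, so its level after poly(A) selection is not on the same footing as that of the others. The changes of both kinds of mRNA overlapped. With ATO in NB4 the 6 mRNAs with a partial stop codon had log2 changes of -0.86 to -0.45 (median -0.64), and the 7 with a full one -1.28 to -0.43 (median -0.76). With ATO in HL-60 the values were -0.72 to -0.34 (median -0.61) for the 6 and -0.74 to -0.12 (median -0.41) for the 7. MT-ATP8 and MT-ATP6 share 46 bases (chrM:8527-8572), MT-ND4L and MT-ND4 share 7 and MT-ATP6 and MT-CO3 share 1, so counts of these neighbours cannot be told apart fully. The counting's strand setting is not given in the sources used here, and reads of MT-ND6 and of RNA antisense to it cannot be separated without it.

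Per kilobase, the mRNAs stood far above the genes that serve them. In untreated NB4 cells the level per kilobase (scaled CPM per kb) was 8460 ± 29.3 for MT-CO3, 7890 ± 311 for MT-CO2 and 6919 ± 1371 for MT-CO1 (SD, n = 3), the core subunits of cytochrome oxidase. It was 955 ± 112 to 1010 ± 188 for the lowest 4, MT-ATP8, MT-CYB, MT-ND6 and MT-ND5, which did not differ beyond their spread. In untreated HL-60 cells MT-CO1 (10591 ± 571) and MT-CO2 (10210 ± 669) led, within each other's spread, and MT-ATP8 (894 ± 33.3) and MT-ND6 (675 ± 41.1) came last. Among the machinery, the highest level per kilobase was that of HSD17B10, a dehydrogenase that also serves as an RNase P subunit (99.7 ± 5.19 in NB4, 101 ± 7.70 in HL-60), and the lowest that of MTERF4, which guides ribosomal RNA methylation (3.32 ± 0.236 and 3.67 ± 0.0971). Lengths are those of the merged exons of a gene, so a gene with long rare exons comes out low.

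The untreated lines differed in single mRNAs and machinery genes, in both directions. Of the 13 mRNAs, 2 were called higher and 8 lower in NB4 than in HL-60 (edgeR quasi-likelihood test, Benjamini-Hochberg adjusted p below 0.05; median log2 difference, NB4 over HL-60, -0.37), where 29.1% of all 17930 genes tested were called higher and 34.0% lower (median -0.01). MT-ND5 (-1.38 ± 0.12, SE) and MT-CYB (-1.18 ± 0.10) were lowest relative to HL-60, and MT-ND6 (0.56 ± 0.15) and MT-CO3 (0.25 ± 0.07) were the 2 called higher. Of the 23 machinery genes 7 were called higher and 7 lower (median -0.03, which turned to 0.01 with DESeq2 size factors and 0.12 with library totals alone, a scaling that moved the median of all genes by 0.13). Both numbers of machinery genes were near the shares over all genes. The largest called differences among them were higher values in NB4 for SLIRP, the partner of LRPPRC (1.02 ± 0.08), ELAC2, which cuts tRNA 3′ ends (0.84 ± 0.06), and TFAM (0.53 ± 0.08), and lower ones for TFB2M (-0.64 ± 0.08), the mitochondrial topoisomerase TOP1MT (-0.49 ± 0.08) and the polymerase's accessory subunit POLG2 (-0.39 ± 0.08). The calls of POLRMT, SSBP1, MGME1 and FASTKD2 (-0.24 to -0.14) were each lost with 2 or more single libraries left out, the adjusted p reaching 0.115, 0.173, 0.128 and 0.129.

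**Figure D1:**
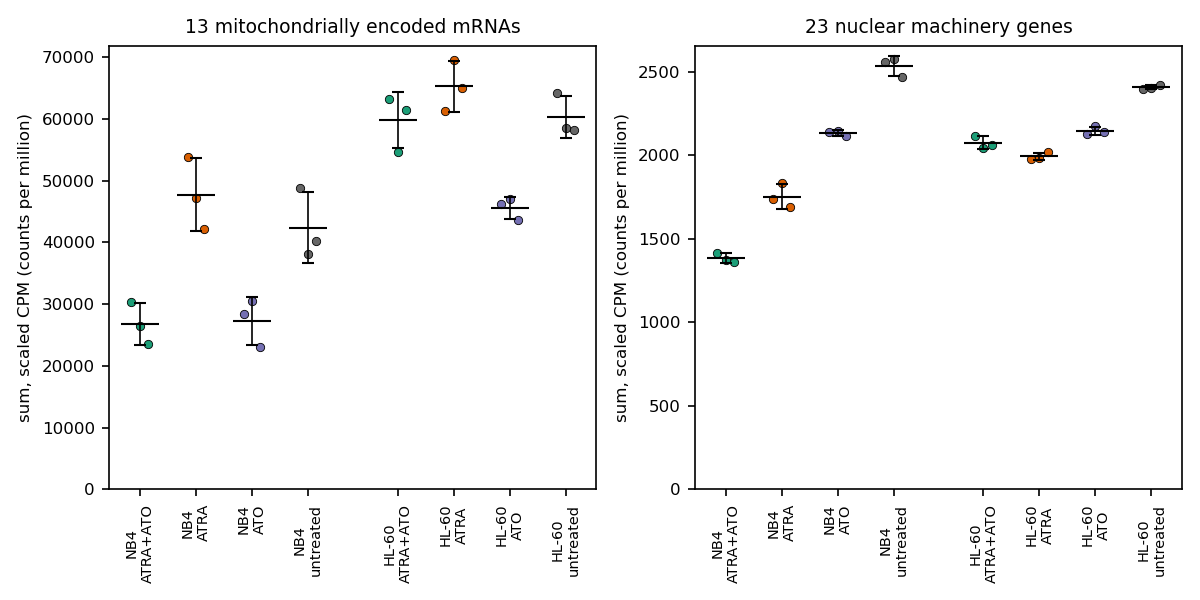
Summed level of the 13 mitochondrially encoded mRNAs (left) and of the 23 nuclear machinery genes (right) in each library, in scaled CPM; points are libraries, bars are means ± SD of 3. The mRNA sum of NB4 cells is low with ATRA+ATO and ATO (23027 to 30508) and that of HL-60 cells with ATO (43592 to 47049), while the machinery sum of NB4 cells is lowest with ATRA+ATO (1360 to 1416).

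Summed over the genes, the mRNAs and their machinery were both lower with ATO in each line and with ATRA+ATO in NB4. With ATRA alone the machinery was lower in each line and the mRNAs were not. The 13 mRNAs summed to 30324, 26451 and 23586 scaled CPM with ATRA+ATO in NB4, to 53909, 47200 and 42141 with ATRA and to 28381, 30508 and 23027 with ATO, against 48888, 38092 and 40222 in untreated cells. The libraries with ATO, alone or combined, lay below all untreated ones, and those with ATRA alone overlapped them. In HL-60 the sums were 63261, 54644 and 61450 with ATRA+ATO, 61311, 69582 and 65081 with ATRA and 46214, 47049 and 43592 with ATO, against 64237, 58548 and 58249 in untreated cells. ATO alone was the treatment with all of its libraries below the untreated ones. The 23 machinery genes summed to 1383 ± 29.6 with ATRA+ATO, 1753 ± 73.0 with ATRA and 2134 ± 16.3 with ATO in NB4, against 2537 ± 58.8 untreated (SD, n = 3 each). In HL-60 they summed to 2074 ± 38.9 with ATRA+ATO, 1995 ± 21.4 with ATRA and 2147 ± 23.8 with ATO, against 2409 ± 13.0 untreated. The mRNAs of a library share its level, so they are not independent measurements of a treatment. Replicate 1 of NB4 had the highest mRNA sum of its group untreated, with ATRA and with ATRA+ATO, and replicate 2 with ATO. Replicate 3 of NB4 had the lowest with each treatment, and replicate 2 in untreated cells. In HL-60 replicate 1 was highest untreated and with ATRA+ATO, and replicate 2 with ATRA and with ATO. As bulk levels, these cannot tell fewer cells of a kind from less RNA per cell, and nothing here measures the number of mitochondrial genomes.

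The ratio of the mRNA sum to the machinery sum was also taken for each library. In NB4 it was 21.4, 19.3 and 17.3 with ATRA+ATO, 31.0, 25.8 and 25.0 with ATRA and 13.3, 14.2 and 10.9 with ATO, against 19.1, 14.8 and 16.3 in untreated cells. In HL-60 it was 29.9, 26.8 and 29.8 with ATRA+ATO, 31.0, 35.0 and 32.2 with ATRA and 21.7, 21.6 and 20.4 with ATO, against 26.8, 24.3 and 24.0. ATRA alone gave the ratios above, and ATO alone those below, every untreated library in both lines, and those of ATRA+ATO overlapped the untreated ones in NB4. The ratio is a description with no test.

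ATO alone lowered the mitochondrial mRNAs in both lines. In NB4 13 of 13 were called lower and 0 higher (median log2 change -0.76), where 19.6% of 16370 genes were called lower and 21.2% higher (median 0.02). In HL-60 12 of 13 were called lower and 0 higher (median -0.51), where 12.1% of 15895 genes were called lower and 16.5% higher (median 0.02). All 13 had libraries below every untreated one in each line, and the 13 and 12 calls held with every library left out in turn. The share of all genes whose libraries lie apart was not taken. This limit holds for all later counts of mRNAs that lie apart or overlap. Batch by batch the median difference was -0.96, -0.42 and -0.91 in NB4 and -0.60, -0.34 and -0.55 in HL-60. Here and below, these differences match libraries by label number, which was not shown to pair them. With library totals alone the split over all NB4 genes was 4700 higher and 2113 lower, a shift of the median by 0.11, and the 13 calls stood.

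MT-ND6, the light-strand mRNA for a complex I subunit, fell most with ATO in NB4. Its levels were 226, 268 and 158 scaled CPM with ATO, against 660, 452 and 459 in untreated cells, with no overlap, a log2 change of -1.28 ± 0.17 (SE; adjusted p = 3.10e-06). In HL-60 they were 276, 299 and 262 against 344, 379 and 340, again apart (-0.33 ± 0.07, adjusted p = 0.000650). The smallest change in both lines was that of MT-CO2, a copper-binding subunit of cytochrome oxidase: 4169, 4247 and 3701 against 5628, 5209 and 5353 in NB4 (-0.43 ± 0.07, adjusted p = 7.80e-05). In HL-60 it had 6360, 6576 and 6125 with ATO against 7512, 6714 and 6724 in untreated cells, where it was the mRNA that missed the threshold (-0.12 ± 0.05, adjusted p = 0.0904). MT-ATP8, a small subunit of ATP synthase, had the largest change in HL-60, with 119, 114 and 97.3 with ATO against 180, 193 and 182 (-0.74 ± 0.09, adjusted p = 3.38e-06). It lay apart in NB4 too, with 114, 115 and 84.6 against 224, 181 and 187 (-0.93 ± 0.11).

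ATRA alone did not lower the mRNAs as a group. In NB4 4 were called higher and 0 lower (median 0.21), where 31.3% of genes were called higher and 28.6% lower (median 0.03). In HL-60 6 were called higher and 1 lower (median 0.12), where 25.2% were called higher and 23.3% lower (median 0.01), so the share of mRNAs called higher was near the background in NB4. Batch by batch the median difference was 0.17, 0.33 and 0.07 in NB4 and -0.05, 0.25 and 0.16 in HL-60. These small changes depended on single libraries. In NB4 the count was 9 without untreated replicate 1, 7 without ATRA replicate 3 and 2 without ATRA replicate 1. In HL-60 it was 4 (3 higher, 1 lower) without untreated replicate 3, ATRA replicate 2 or ATRA replicate 3, and again 3 higher and 1 lower with library totals alone.

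MT-ND3, a membrane subunit of complex I, rose most with ATRA in NB4, with levels of 749, 619 and 589 scaled CPM, against 486, 501 and 500 in untreated cells, all apart (0.42 ± 0.07, adjusted p = 4.19e-05). It rose in HL-60 as well, with 682, 824 and 761 against 634, 652 and 610 (0.27 ± 0.07, adjusted p = 0.00202). MT-CO2 was the other mRNA called higher in both lines with every library left out in turn: 6919, 6270 and 6000 against 5628, 5209 and 5353 in NB4 (0.27 ± 0.07). HL-60 cells had 7528, 8865 and 8120 against 7512, 6714 and 6724 (0.24 ± 0.05). The NB4 call of MT-ND5 (0.34 ± 0.13) was lost without untreated replicate 2, untreated replicate 3 or ATRA replicate 1 (adjusted p of 0.158, 0.122 and 0.239), and that of MT-CO3 (0.24 ± 0.07) without ATRA replicate 1 (0.0720). The smallest change in NB4 was that of MT-ND2, another complex I subunit, with 3125, 2667 and 2309 against 3167, 2415 and 2507 (0.02 ± 0.12). In HL-60 it was that of MT-ND1, with 3038, 3246 and 3018 against 3187, 3138 and 2900 (0.02 ± 0.04); the libraries overlapped for both. In HL-60 MT-ND6 went the other way and fell, with 282, 294 and 275 with ATRA against 344, 379 and 340 (-0.31 ± 0.07, adjusted p = 0.000509). In NB4 its libraries overlapped, at 577, 518 and 342 against 660, 452 and 459 (-0.11 ± 0.17).

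The combination kept the mRNAs low in NB4 and left them near the untreated level in HL-60. In NB4 13 of 13 were called lower (median -0.69), where 32.8% of genes were called lower and 35.4% higher (median 0.05), with all 13 apart from the untreated libraries and 13 called with every library left out in turn. In HL-60 3 were called higher and 3 lower (median -0.06), where 30.7% were called higher and 29.7% lower (median -0.00), and 8 of the 13 overlapped the untreated libraries. Batch by batch the HL-60 median difference was -0.02, -0.15 and 0.08. The 3 HL-60 rises (MT-ND1, MT-ND3 and MT-ND5, 0.14 to 0.17) were not firm: without untreated replicate 3 the calls were 0 higher and 3 lower, and with library totals alone 0 higher and 5 lower (median -0.14). The 3 falls, of MT-ND6, MT-CO3 and MT-ATP6, held with every library left out in turn.

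MT-ND6 again changed most. With ATRA+ATO in NB4 it had 265, 256 and 273 scaled CPM, below all 3 untreated libraries (-0.99 ± 0.17, adjusted p = 1.83e-05). In HL-60 it had 245, 212 and 269, also below all 3 untreated libraries (-0.53 ± 0.07, adjusted p = 4.03e-07). The smallest change in NB4 was that of MT-ND3, with 340, 377 and 350 with ATRA+ATO against 486, 501 and 500 (-0.49 ± 0.07, adjusted p = 4.34e-06). In HL-60 it was that of MT-CO1, the catalytic subunit of cytochrome oxidase, with 17068, 14940 and 16820 against 17320, 16046 and 15630, which overlapped (0.01 ± 0.05, adjusted p = 0.830). In NB4 MT-CO1 had 7566, 6497 and 5884 with ATRA+ATO against 13045, 8997 and 9965, a fall of 0.69 ± 0.13 on the log2 scale.

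**Figure D2:**
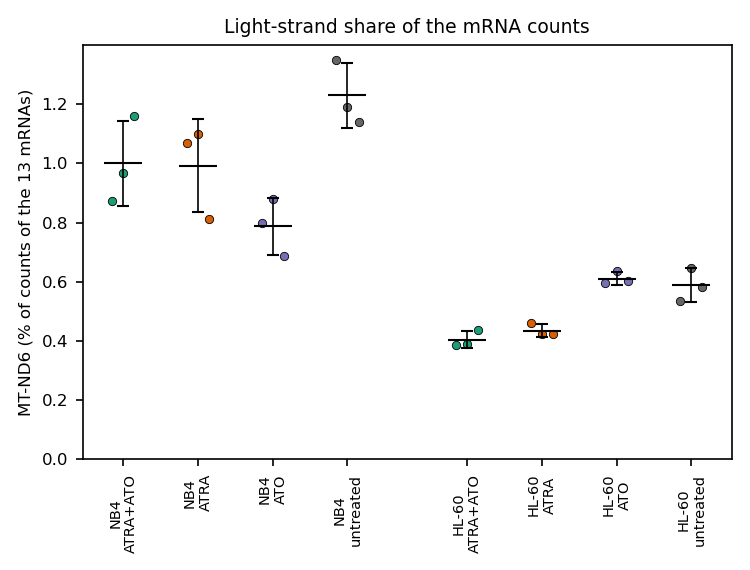
MT-ND6 as a percentage of the counts of the 13 mitochondrially encoded mRNAs in each library (y axis), by line and treatment; points are libraries, bars are means ± SD of 3. The share with ATO is below that of untreated cells in NB4 (0.687 to 0.879%) and within their range in HL-60 (0.597 to 0.636%), where ATRA+ATO and ATRA libraries lie below it (0.387 to 0.460%).

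The share of MT-ND6 within the mRNA pool followed the drugs in another order in each line. It made up 0.873, 0.969 and 1.16% of the counts of the 13 mRNAs with ATRA+ATO in NB4, 1.07, 1.10 and 0.812% with ATRA and 0.798, 0.879 and 0.687% with ATO, against 1.35, 1.19 and 1.14% untreated. Only the ATO and ATRA libraries lay wholly below the untreated ones. In HL-60 it made up 0.387, 0.388 and 0.438% with ATRA+ATO, 0.460, 0.423 and 0.423% with ATRA and 0.597, 0.636 and 0.601% with ATO, against 0.535, 0.647 and 0.583%. There the ATRA and combination libraries were below, and the ATO ones inside, the untreated range. By complex, the shares moved by a few points: the 7 mRNAs of complex I held 37.0 ± 0.337, 35.4 ± 0.801 and 34.9 ± 1.43% in NB4 with ATRA+ATO, ATRA and ATO, against 36.7 ± 1.41% untreated (SD, n = 3). In HL-60 they held 45.2 ± 0.499% with ATRA+ATO, 43.0 ± 0.0826% with ATRA and 40.9 ± 0.710% with ATO, against 43.0 ± 0.589% untreated. The 3 of complex IV held 51.6 ± 0.868% in HL-60 with ATO, against 47.9 ± 0.552% untreated. The 2 of complex V held 6.16 ± 0.141% in NB4 with ATRA+ATO, against 7.05 ± 0.175%.

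**Figure D3:**
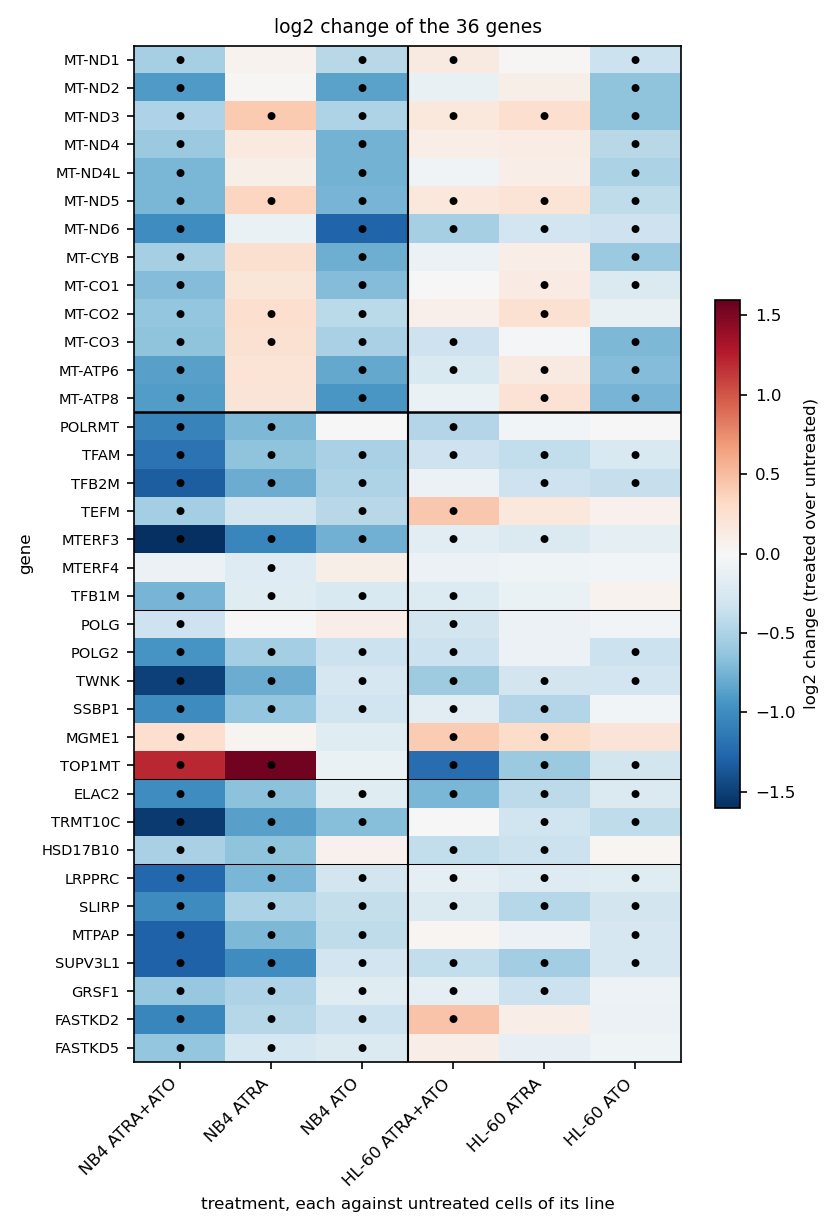
Log2 change of each of the 36 genes (rows; mRNAs above the thick line, machinery below it by role) with each treatment against untreated cells of the same line (columns); colour gives the change, and a dot marks an adjusted p below 0.05. In the NB4 ATRA+ATO column 20 of 23 machinery genes are called lower, and in the ATO columns 13 (NB4) and 12 (HL-60) of the mRNAs are; the colour scale ends short of the -1.68 of MTERF3.

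The nuclear machinery fell with ATRA in NB4, where the mRNAs did not. With ATRA 19 of 23 genes were called lower and 1 higher in NB4 (median log2 change -0.62), 17 of the 19 with every library left out in turn. The calls of MTERF4 and TFB1M were lost without 2 and 4 of the libraries (adjusted p up to 0.125 and 0.129). With ATO 17 were called lower and 0 higher (median -0.29), and 11 lower and 2 higher with library totals alone (median -0.19). Of the 17, TEFM, TFB1M, ELAC2, GRSF1 and FASTKD5 lost the call with some library left out, at adjusted p of at most 0.105. With ATRA+ATO 20 were called lower and 2 higher (median -1.01), all of them with every library left out in turn. In HL-60 the same treatments gave 13 lower and 1 higher with ATRA (median -0.23), 11 lower and 0 higher with ATO (median -0.15) and 15 lower and 3 higher with ATRA+ATO (median -0.18). The shares called lower over all genes are those given for the mRNAs. The 8 markers of mitochondrial mass were lower alongside the machinery in NB4, 8 of 8 with ATRA+ATO (median -0.96), 8 of 8 with ATRA (median -0.58) and 6 of 8 with ATO (median -0.23), and their part in the result was not tested. The untreated libraries are shared by the 3 comparisons of a line.

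Among the genes of transcription, the activator TFAM was lower with every treatment in both lines. Its levels in NB4 were 116, 99.7 and 111 scaled CPM with ATRA+ATO, 145, 179 and 137 with ATRA and 176, 177 and 167 with ATO, against 244, 271 and 222 in untreated cells. In HL-60 they were 143, 120 and 137 with ATRA+ATO, 124, 129 and 131 with ATRA and 140, 146 and 141 with ATO, against 164, 167 and 178 in untreated cells. No treated library reached an untreated one of its line. The log2 changes were -1.18 ± 0.09, -0.65 ± 0.09 and -0.52 ± 0.09 in NB4 and -0.33 ± 0.06, -0.40 ± 0.06 and -0.24 ± 0.06 in HL-60, all called (adjusted p of at most 0.00233).

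The polymerase gene POLRMT fell in NB4 with the treatments that hold ATRA. It had 20.4, 19.6 and 15.6 scaled CPM with ATRA+ATO, 24.7, 19.7 and 25.3 with ATRA and 38.7, 39.8 and 37.8 with ATO, against 38.1, 38.8 and 39.0 in untreated cells. It fell by 1.07 ± 0.10 with ATRA+ATO and by 0.72 ± 0.10 with ATRA on the log2 scale, and its ATO value was -0.01 ± 0.10 (adjusted p = 0.958). In HL-60 it had 29.8, 39.8 and 27.1 with ATRA+ATO, 42.0, 43.9 and 45.5 with ATRA and 47.1, 45.7 and 43.1 with ATO, against 46.4, 46.5 and 43.6, so only the combination libraries stood below the untreated ones (-0.47 ± 0.09, adjusted p = 0.000157). With ATO in NB4, 13 mRNAs and 17 machinery genes were called lower, and POLRMT was not called. With ATRA in NB4, where POLRMT fell, 0 mRNAs were called lower. The part of any machinery gene in the mRNA levels was not tested.

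MTERF3, which in mice represses mitochondrial transcription and helps assemble the ribosome, had the largest fall of any machinery gene in each NB4 comparison with untreated cells. It had 14.2, 13.1 and 14.4 scaled CPM with ATRA+ATO, 20.2, 23.8 and 19.1 with ATRA and 25.0, 26.8 and 26.9 with ATO, against 47.2, 44.6 and 40.9, with no overlap (-1.68 ± 0.09, -1.05 ± 0.09 and -0.77 ± 0.09; adjusted p of at most 4.21e-07). Its HL-60 levels were 36.1, 34.6 and 32.9 with ATRA+ATO, 32.1, 34.5 and 34.1 with ATRA and 35.9, 36.5 and 33.8 with ATO, against 40.1, 37.9 and 41.0 in untreated cells. The HL-60 falls were called with ATRA (-0.23 ± 0.06) and with ATRA+ATO (-0.18 ± 0.06); the second was lost without untreated replicate 3 or ATRA+ATO replicate 3 (adjusted p of 0.0646 and 0.0912). TFB2M, the initiation factor, had 18.1, 16.0 and 20.1 with ATRA+ATO, 24.1, 29.6 and 22.9 with ATRA and 31.3, 32.1 and 33.4 with ATO in NB4, against 43.9, 46.4 and 44.0 in untreated cells. The level in HL-60 was 60.6, 67.4 and 64.4 with ATRA+ATO, 56.8, 52.9 and 55.4 with ATRA and 52.3, 55.3 and 52.4 with ATO, against 66.1, 71.5 and 71.2 in untreated cells. It fell in both lines with either drug alone (-0.79 ± 0.09 and -0.49 ± 0.09 in NB4, -0.33 ± 0.06 and -0.37 ± 0.06 in HL-60). With both drugs it fell in NB4 (-1.32 ± 0.10) and was not called in HL-60 (-0.10 ± 0.06, adjusted p = 0.140). TEFM, the elongation factor, rose with ATRA+ATO in HL-60, with 23.9, 20.3 and 21.8 against 16.1, 15.0 and 18.4 (0.43 ± 0.09, adjusted p = 0.000245). It fell in NB4, with 9.41, 10.1 and 10.0 against 15.1, 13.6 and 14.4 (-0.55 ± 0.14, adjusted p = 0.00141). TFB1M, which methylates the small ribosomal RNA, fell in NB4 with ATRA+ATO (-0.75 ± 0.08) and in HL-60 with the same treatment (-0.22 ± 0.07). MTERF4 was called with ATRA alone, in NB4 (-0.21 ± 0.08), and with 0 treatments in HL-60.

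**Figure D4:**
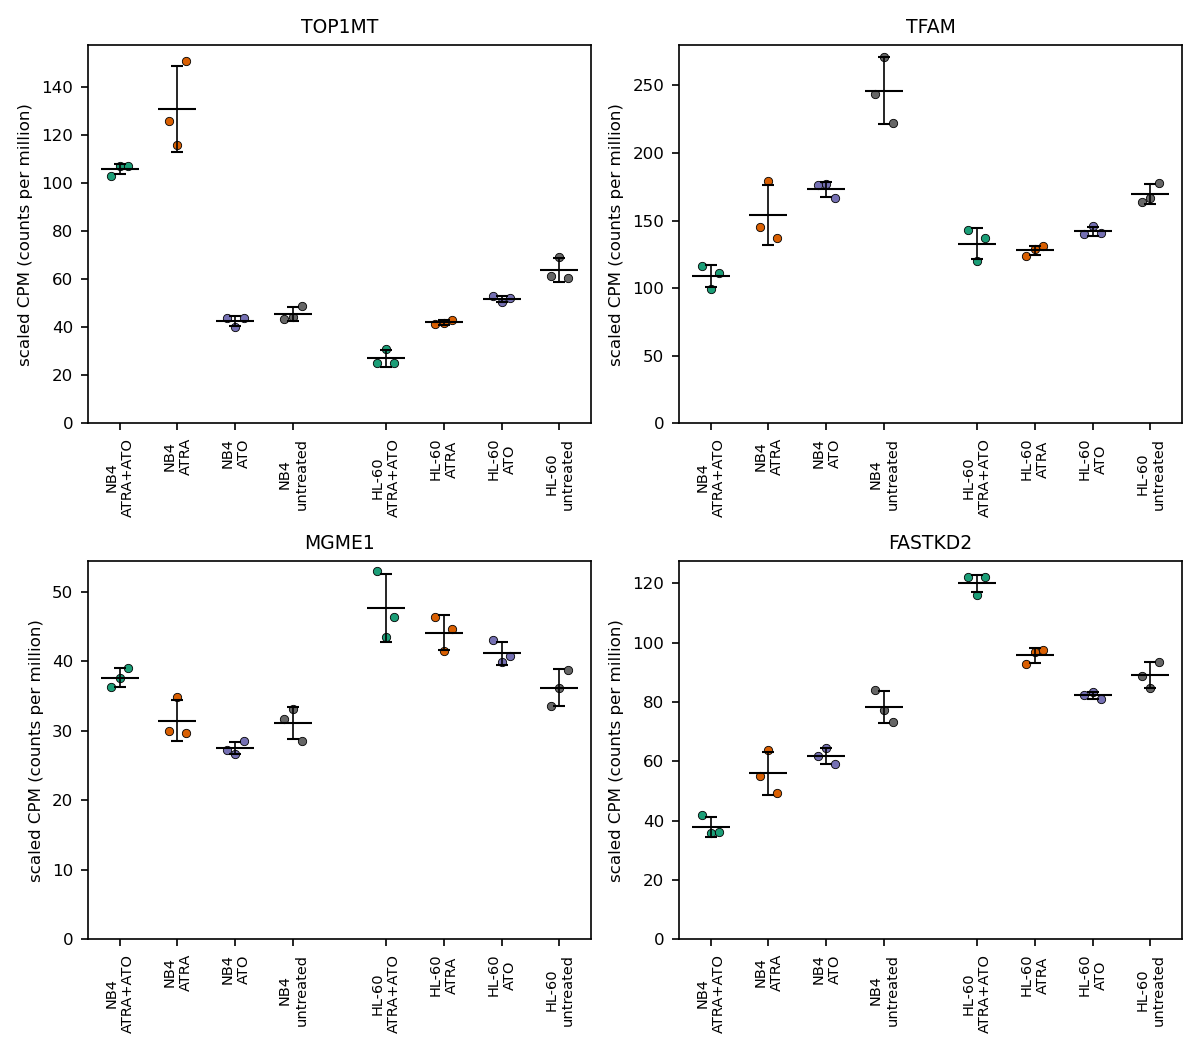
Level of 4 machinery genes in each library, in scaled CPM (y axes start at 0); points are libraries, bars are means ± SD of 3. TOP1MT is high in NB4 with ATRA+ATO and ATRA (103 to 151) and low in HL-60 with ATRA+ATO (25.0 to 31.0); TFAM is below untreated cells in every treated group; within NB4, MGME1 is highest with ATRA+ATO (36.3 to 39.0); FASTKD2 is lowest in NB4 and highest in HL-60 with ATRA+ATO.

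The replication genes held the machinery's 2 called rises with ATRA alone, of TOP1MT in NB4 and of MGME1 in HL-60. TOP1MT, the topoisomerase that relaxes mitochondrial DNA, had 103, 107 and 107 scaled CPM with ATRA+ATO, 126, 116 and 151 with ATRA and 43.7, 40.2 and 44.0 with ATO in NB4, against 43.5, 44.2 and 48.7 in untreated cells. It rose with ATRA+ATO (1.21 ± 0.08, adjusted p = 1.30e-11) and ATRA (1.54 ± 0.08, adjusted p = 3.30e-13), and was not called with ATO (-0.11 ± 0.08). HL-60 cells had 25.0, 31.0 and 25.0 with ATRA+ATO, 41.4, 41.7 and 43.2 with ATRA and 52.9, 50.3 and 52.0 with ATO, against 61.2, 69.4 and 60.7 in untreated cells. It fell there with all 3 treatments (-1.22 ± 0.08, -0.59 ± 0.08 and -0.29 ± 0.07). Its treated libraries lay on opposite sides of the untreated ones in the 2 lines with ATRA and with ATRA+ATO.

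MGME1, the exonuclease that trims ends during replication, was higher with the combination in both lines. In NB4 it had 36.3, 37.5 and 39.0 scaled CPM with ATRA+ATO, 29.9, 34.8 and 29.6 with ATRA and 27.2, 26.7 and 28.5 with ATO, against 31.7, 33.1 and 28.5 (0.27 ± 0.08, adjusted p = 0.00613, for the combination). Its HL-60 levels were 53.0, 43.5 and 46.4 with ATRA+ATO, 46.3, 41.4 and 44.6 with ATRA and 43.0, 39.8 and 40.7 with ATO, against 33.5, 36.2 and 38.7 in untreated cells. It rose there with ATRA+ATO (0.41 ± 0.08) and ATRA (0.29 ± 0.08), with ATO at 0.20 ± 0.08 (adjusted p = 0.0523). The helicase gene TWNK went down in both. It had 48.7, 47.9 and 42.8 with ATRA+ATO, 76.4, 73.0 and 72.8 with ATRA and 108, 112 and 107 with ATO in NB4, against 125, 130 and 135 in untreated cells. HL-60 cells had 67.3, 69.7 and 65.3 with ATRA+ATO, 79.6, 83.4 and 83.0 with ATRA and 78.3, 81.7 and 82.0 with ATO, against 103, 99.3 and 101 in untreated cells. All treated groups lay below untreated cells and were called (-1.49 ± 0.07 and -0.57 ± 0.05 with ATRA+ATO).

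SSBP1, which coats single-stranded mitochondrial DNA, fell with ATRA in HL-60, with 177, 182 and 187 scaled CPM against 244, 263 and 254 (-0.47 ± 0.05, adjusted p = 1.23e-08), and less with ATRA+ATO, with 234, 222 and 214 (-0.17 ± 0.05). In NB4 it had 113, 112 and 119 with ATRA+ATO, 146, 155 and 140 with ATRA and 184, 187 and 184 with ATO, against 243, 233 and 212, and fell with all 3 (-1.01 ± 0.06, -0.62 ± 0.06 and -0.32 ± 0.06). POLG2, the accessory subunit of the DNA polymerase, had 29.7, 33.8 and 30.9 with ATO in HL-60 against 43.3, 37.3 and 41.1 (-0.35 ± 0.07, adjusted p = 0.000833), fell there with ATRA+ATO by as much, and fell in NB4 with all 3 treatments (-0.94 ± 0.09 to -0.34 ± 0.09). POLG, its catalytic subunit, was called with ATRA+ATO alone among the treatments, in NB4 (-0.33 ± 0.06) and in HL-60 (-0.29 ± 0.06).

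All 3 genes of tRNA cleavage fell with ATRA in both lines. TRMT10C, the methyltransferase subunit of RNase P, had 20.6, 18.2 and 22.1 scaled CPM with ATRA+ATO, 29.8, 38.4 and 25.8 with ATRA and 37.6, 36.7 and 35.6 with ATO in NB4, against 59.4, 58.8 and 55.9 in untreated cells (-1.53 ± 0.11, -0.87 ± 0.10 and -0.68 ± 0.10). The level in HL-60 was 58.9, 51.7 and 52.7 with ATRA+ATO, 42.0, 46.9 and 44.2 with ATRA and 37.2, 44.7 and 42.6 with ATO, against 54.3, 56.9 and 55.6 in untreated cells. There it fell with ATRA (-0.32 ± 0.07) and ATO (-0.41 ± 0.07), and the combination libraries overlapped the untreated ones (-0.01 ± 0.07, adjusted p = 0.880). ELAC2 had 89.3, 85.6 and 75.1 with ATRA+ATO, 104, 103 and 104 with ATRA and 142, 149 and 146 with ATO in NB4, against 165, 162 and 169 in untreated cells. HL-60 cells had 52.0, 59.8 and 53.9 with ATRA+ATO, 68.3, 68.2 and 69.0 with ATRA and 80.6, 76.1 and 78.0 with ATO, against 90.7, 94.8 and 92.0 in untreated cells. It fell with the combination (-1.0 ± 0.06 in NB4, -0.73 ± 0.06 in HL-60) and with ATRA (-0.66 ± 0.06 and -0.42 ± 0.06). Its ATO fall in NB4 (-0.20 ± 0.06) was lost without untreated replicate 3, ATO replicate 1 or ATO replicate 3 (adjusted p of 0.0567, 0.0801 and 0.0504). HSD17B10 fell with ATRA (-0.65 ± 0.08 and -0.34 ± 0.06) and the combination (-0.52 ± 0.08 and -0.39 ± 0.06) and was not called with ATO in either line (0.07 ± 0.08 and 0.03 ± 0.06).

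All 7 genes of RNA stability and processing fell with each treatment in NB4, with medians of -1.05 with ATRA+ATO, -0.51 with ATRA and -0.31 with ATO; with library totals alone 4 of the 7 were called with ATO (median -0.20). LRPPRC, which stabilizes the mRNAs, and SLIRP fell by 1.26 ± 0.08 and 1.01 ± 0.08 with ATRA+ATO on the log2 scale, and the poly(A) polymerase gene MTPAP by 1.30 ± 0.08. SUPV3L1, the helicase of the mitochondrial degradosome, had 51.5, 49.4 and 46.9 scaled CPM with ATRA+ATO, 60.7, 57.6 and 60.8 with ATRA and 93.1, 97.7 and 103 with ATO in NB4, against 120, 125 and 115 in untreated cells (-1.29 ± 0.07, -0.99 ± 0.07 and -0.31 ± 0.06). Its HL-60 levels were 68.7, 69.9 and 70.9 with ATRA+ATO, 61.7, 64.0 and 63.6 with ATRA and 68.8, 80.9 and 80.6 with ATO, against 90.4, 97.1 and 92.4 in untreated cells (-0.40 ± 0.06, -0.56 ± 0.06 and -0.27 ± 0.06), with all treated libraries below the untreated ones in both lines.

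FASTKD2, an RNA-binding protein of mitochondrial RNA granules needed for the large ribosomal RNA, went opposite ways with the combination. It had 41.8, 35.7 and 36.2 scaled CPM with ATRA+ATO, 55.1, 63.7 and 49.3 with ATRA and 61.9, 64.4 and 59.1 with ATO in NB4, against 84.1, 77.2 and 73.3 in untreated cells (-1.05 ± 0.09 for the combination, adjusted p = 4.57e-10). The level in HL-60 was 122, 116 and 122 with ATRA+ATO, 92.9, 97.0 and 97.6 with ATRA and 82.3, 83.5 and 80.9 with ATO, against 88.8, 84.8 and 93.6 in untreated cells. There it rose with the combination (0.45 ± 0.05, adjusted p = 6.61e-08) and was not called with either drug alone. In HL-60, of the stability genes with either drug alone, ATRA lowered LRPPRC, SLIRP, SUPV3L1 and GRSF1, the last of which organizes RNA granules, and ATO lowered LRPPRC, SLIRP, MTPAP and SUPV3L1. The ATO call of SLIRP (-0.29 ± 0.08) was lost without untreated replicate 2 or ATO replicate 3 (adjusted p of 0.0558 and 0.0662).

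Promoters are shown for TFAM and POLRMT, which moved together with ATRA in NB4 and apart with ATO, and whose genes are textbook targets of the factor NRF-1. The 100 bases before the start (RefSeq, GRCh38.p14) are chr10:58385310-58385409 on the plus strand for TFAM and chr19:633538-633637 on the minus strand for POLRMT, written 5′ to 3′ on the gene's strand, with matches to the NRF-1 core (GCGCA, any base, then GCGC) on either strand in capitals.
TFAM: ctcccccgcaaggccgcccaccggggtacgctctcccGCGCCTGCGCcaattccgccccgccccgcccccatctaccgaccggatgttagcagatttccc
POLRMT: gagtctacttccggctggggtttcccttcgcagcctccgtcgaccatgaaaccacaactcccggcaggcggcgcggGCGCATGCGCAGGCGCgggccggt
TFAM held 1 match, and POLRMT 2 that overlap. Promoter entries, from 250 bases before each start to 50 after it, were searched for 19 of the 23 machinery genes, and 4 held the core (POLG2, POLRMT, TFAM and TFB1M), against 5.78% of 35116 promoters. For both cores, a gene was counted if any of its entries held a match, while the shares are of single entries. Some genes have several entries, so the 2 measures are not the same. The core CCGGAAG of ETS factors such as GABP, searched on either strand and apart from the NRF-1 core, was in 9 of the 19 (ELAC2, MTERF4, POLG2, POLRMT, SLIRP, SSBP1, TEFM, TFB1M and TRMT10C), against 10.3%. A match describes letters and no binding, and its part in the changes was not tested. With ATRA+ATO in NB4, all of the 9 genes with the ETS core but MTERF4 (-0.10 ± 0.08) were called lower. Of all 23 machinery genes 20 were called lower there.

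The combination was next set against each drug alone. In NB4, ATRA+ATO against ATRA gave 13 of 13 mRNAs lower (median -0.88), where 21.2% of genes were called lower and 16.8% higher (median -0.01), all apart, and 18 machinery genes lower and 1 higher (median -0.39). With library totals alone the split over all genes was 4436 higher and 2051 lower, a shift of 0.14, and the machinery gave 15 lower and 3 higher (median -0.25). The largest called changes in the machinery were falls of TWNK (-0.70 ± 0.07), TRMT10C (-0.66 ± 0.11) and MTERF3 (-0.63 ± 0.09). The rise was that of MGME1 (0.23 ± 0.08, adjusted p = 0.0302), lost without ATRA replicate 1, ATRA replicate 3, ATRA+ATO replicate 2 or ATRA+ATO replicate 3 (adjusted p of 0.102, 0.0913, 0.0504 and 0.0729). POLRMT (-0.35 ± 0.10) lost its call without ATRA replicate 1 or ATRA+ATO replicate 3 (0.0529 and 0.0737).

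ATRA+ATO against ATO in NB4 gave few calls among the mRNAs and many in the machinery. Of the mRNAs 1 was called lower and 0 higher (median 0.00), where 28.3% of genes were called lower and 28.6% higher (median 0.01), and all 13 overlapped. That mRNA, MT-CO2 (-0.19 ± 0.07, adjusted p = 0.0353), had 3967, 3545 and 3079 with ATRA+ATO against 4169, 4247 and 3701 with ATO. Its call was lost without ATO replicate 1, ATO replicate 2, ATRA+ATO replicate 2 or ATRA+ATO replicate 3 (adjusted p of 0.105, 0.144, 0.0509 and 0.283). The count was 0 without ATO replicate 1 or ATRA+ATO replicate 2, 2 higher without ATO replicate 2, and 2 lower without ATRA+ATO replicate 1. Of the machinery 20 genes were called lower and 2 higher (median -0.67), with TWNK (-1.22 ± 0.07), POLRMT (-1.06 ± 0.10) and SUPV3L1 (-0.99 ± 0.07) lowest and TOP1MT (1.32 ± 0.08) and MGME1 (0.46 ± 0.08) higher. The call of MTERF4 (-0.20 ± 0.08) was lost without any single ATO library and without ATRA+ATO replicates 1 and 3 (adjusted p up to 0.142).

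In HL-60, ATRA+ATO against ATO raised 12 of 13 mRNAs and lowered 1 (median 0.48), where 27.5% of genes were called higher and 27.0% lower (median -0.01). The largest rise was that of MT-ND3 (0.80 ± 0.07, adjusted p = 7.79e-10), with 741, 641 and 724 scaled CPM with ATRA+ATO against 366, 445 and 400 with ATO. The 12 were apart from the ATO libraries and called with every library left out in turn, and batch by batch the median difference was 0.53, 0.27 and 0.62. The mRNA called lower was MT-ND6 (-0.20 ± 0.07), a call lost without ATO replicate 2 or ATRA+ATO replicate 2 (adjusted p of 0.126 and 0.0678). Over all genes, library totals alone gave 3502 higher and 5347 lower, a shift of -0.10. Of the machinery 7 were called higher and 8 lower (median -0.05, and batch by batch 0.01, -0.13 and -0.04), both near the shares over all genes given above. FASTKD2 (0.55 ± 0.05), TRMT10C (0.40 ± 0.07) and TEFM (0.36 ± 0.09) were highest and TOP1MT (-0.93 ± 0.08), ELAC2 (-0.50 ± 0.06) and POLRMT (-0.48 ± 0.09) lowest. The calls of MGME1, FASTKD5 and SSBP1 were lost with some library left out.

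ATRA+ATO against ATRA in HL-60 gave smaller changes, with 1 mRNA higher and 8 lower (median -0.17), where 22.0% of genes were called higher and 21.9% lower (median -0.01). MT-ATP6 (-0.39 ± 0.06), MT-ATP8 (-0.34 ± 0.09) and MT-CO3 (-0.30 ± 0.05) were lowest, and 6 of the 8 falls held with every library left out in turn. Batch by batch the median difference was 0.03, -0.40 and -0.08. The rise, of MT-ND1 (0.12 ± 0.04), was lost without ATRA replicate 1, ATRA replicate 3, ATRA+ATO replicate 1 or ATRA+ATO replicate 3 (adjusted p of 0.144, 0.145, 0.0792 and 0.154). Of the machinery 9 were called higher and 6 lower (median 0.07), with FASTKD2 (0.33 ± 0.05), SSBP1 (0.30 ± 0.05) and TRMT10C (0.30 ± 0.07) highest and TOP1MT (-0.63 ± 0.08), POLRMT (-0.43 ± 0.09) and ELAC2 (-0.30 ± 0.06) lowest.

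**Figure D5:**
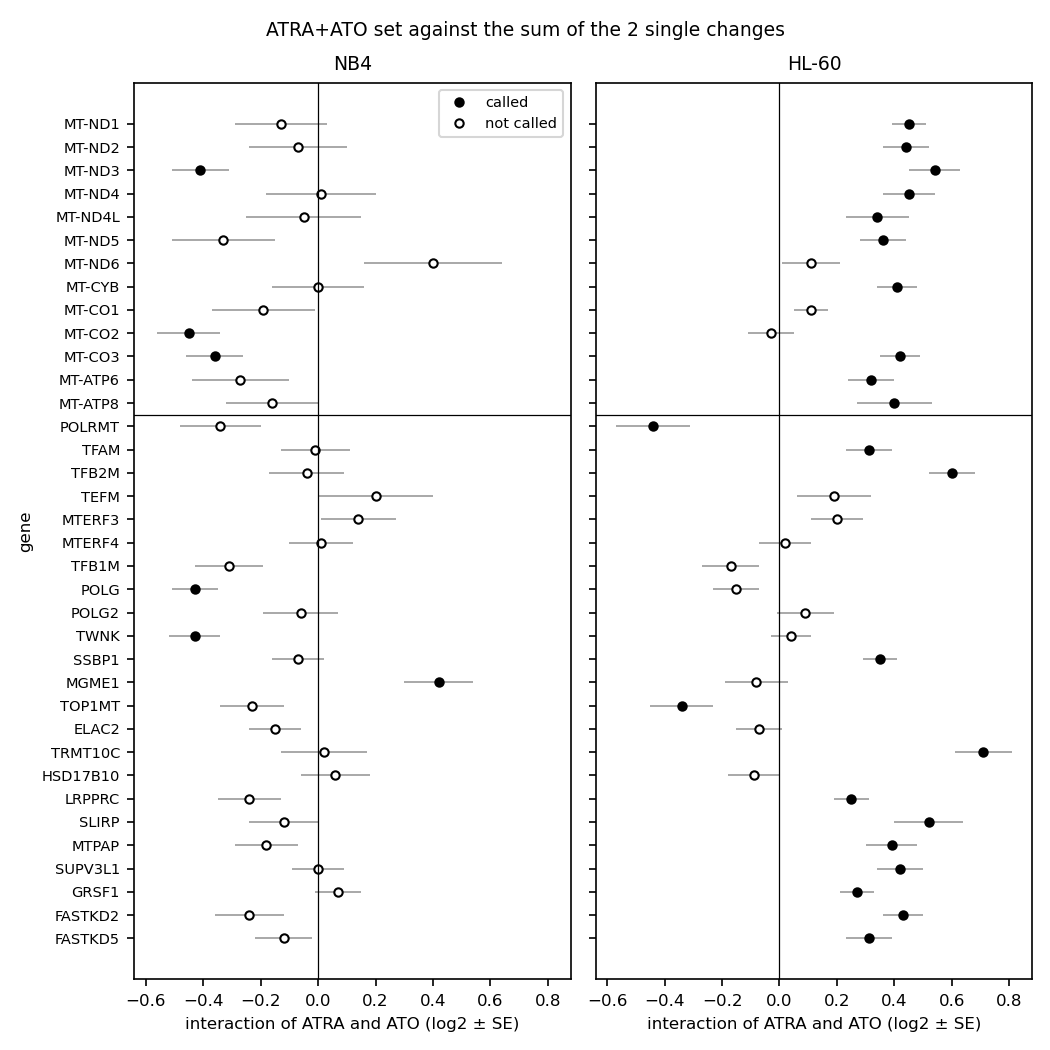
Interaction of ATRA and ATO for each of the 36 genes in NB4 (left) and HL-60 (right), as the log2 change with ATRA+ATO minus the sum of the log2 changes with each drug (x axis; bars are SE), with filled points for an adjusted p below 0.05. In HL-60 10 mRNAs and 11 machinery genes are called above 0, and in NB4 3 mRNAs are called below it.

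The interaction term asks whether the combination differs from the sum of the 2 single changes on the log2 scale. In HL-60 it was positive for 10 of 13 mRNAs and negative for 0 (median 0.40), where 14.4% of genes were called positive and 18.1% negative (median -0.06). It was highest for MT-ND3 (0.54 ± 0.09), MT-ND1 (0.45 ± 0.06) and MT-ND4 (0.45 ± 0.09). Of the 10, 8 held with every library left out in turn, and MT-ND4L and MT-ATP8 did not (adjusted p up to 0.111 without untreated replicate 1 and 0.0864 without ATO replicate 3). MT-CO2 stood apart from them at -0.03 ± 0.08. The machinery had 11 positive and 2 negative terms (median 0.20). TRMT10C (0.71 ± 0.10), TFB2M (0.60 ± 0.08) and SLIRP (0.52 ± 0.12) were highest. The negative ones, POLRMT (-0.44 ± 0.13) and TOP1MT (-0.34 ± 0.11), were lost with a library left out: POLRMT without ATRA+ATO replicate 3 (adjusted p = 0.0609), and TOP1MT without untreated replicate 1 or 3, ATO replicate 1, or ATRA+ATO replicate 1 or 3 (0.0527, 0.0536, 0.0537, 0.0622 and 0.0760). All 7 stability genes had a positive term.

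In NB4 few terms were called. They were negative for 3 mRNAs and positive for 0 (median -0.16), where 12.5% of genes were called negative and 6.14% positive (median -0.06). The 3 were MT-CO2 (-0.45 ± 0.11), MT-ND3 (-0.41 ± 0.10) and MT-CO3 (-0.36 ± 0.10), the last lost without ATRA replicate 1, ATO replicate 2 or ATRA+ATO replicate 3 (adjusted p of 0.0592, 0.0576 and 0.0616). In the machinery POLG (-0.43 ± 0.08) and TWNK (-0.43 ± 0.09) were negative and MGME1 (0.42 ± 0.12) positive (median -0.07), and without ATRA replicate 2 the count of called genes was 5 in place of 3. Neither the number of negative nor that of positive machinery genes was above the share over all genes. Whether the interaction itself differed between the lines was not tested.

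The responses of the lines were then set against each other, as NB4 minus HL-60. To ATRA+ATO, 12 of 13 mRNAs were called lower in NB4 and 0 higher (median log2 difference -0.64), where 22.7% of genes were called lower and 24.9% higher (median 0.11); library totals alone moved the median of all genes by 0.13. MT-ND5 (-0.87 ± 0.16), MT-ND2 (-0.76 ± 0.15) and MT-ATP8 (-0.75 ± 0.16) differed most. The calls of MT-CYB (-0.41 ± 0.14) and MT-CO3 (-0.29 ± 0.10) were lost without ATRA+ATO replicate 3 of NB4 (adjusted p of 0.0612 and 0.0736), MT-CYB also without untreated replicate 1 of NB4 (0.0835), and MT-CO3 without ATRA+ATO replicate 1 of HL-60 (0.0507). Of the machinery 18 were lower and 1 higher (median -0.76). TRMT10C (-1.49 ± 0.14), MTERF3 (-1.47 ± 0.11) and FASTKD2 (-1.47 ± 0.10) were lowest, and TOP1MT was higher (2.46 ± 0.12, adjusted p = 2.98e-17). The call of ELAC2 was lost without ATRA+ATO replicate 3 of NB4 or ATRA+ATO replicate 2 of HL-60 (adjusted p of 0.0586 and 0.0700).

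To ATRA, differences were called in the machinery and in 1 mRNA. Of the machinery 13 were called lower in NB4 and 1 higher (median -0.33), where 16.8% of genes were called lower and 17.7% higher (median 0.03). MTERF3 (-0.83 ± 0.11), POLRMT (-0.68 ± 0.15) and MTPAP (-0.64 ± 0.10) were lowest, TOP1MT was higher (2.12 ± 0.12, adjusted p = 1.53e-15), and TEFM, ELAC2 and HSD17B10 lost their calls with some library left out (adjusted p up to 0.198, 0.0822 and 0.0701). Of the mRNAs 1 was called, MT-CO3 (0.26 ± 0.10, adjusted p = 0.0397; median 0.05). That count was 0 without any single untreated library of NB4, ATRA replicate 1 of NB4, untreated replicate 1 of HL-60, or ATRA replicate 1 or 3 of HL-60 (adjusted p up to 0.134), and 0 with scaling from nuclear genes.

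To ATO, few differences between the lines were called. Of the mRNAs 1 was called lower in NB4 and 0 higher (median -0.18), where 6.00% of genes were called lower and 7.11% higher (median 0.02), or 734 and 1746 with library totals alone. It was MT-ND6 (-0.92 ± 0.21, adjusted p = 0.00231), which held with every library left out in turn; 2 were called lower without untreated replicate 2 or 3 or ATO replicate 2 of NB4, or untreated replicate 1 of HL-60. Of the machinery 3 were called lower and 0 higher (median -0.08): MTERF3 (-0.59 ± 0.11), MGME1 (-0.36 ± 0.11) and SSBP1 (-0.25 ± 0.07). MTERF3 alone was left without untreated replicate 1 or 2 of NB4 or untreated replicate 1 of HL-60 (adjusted p of the other two up to 0.0978); single ATO libraries also ended the call of MGME1 (up to 0.0733) or SSBP1 (0.0621). A difference that misses the threshold does not show that the lines act alike: the SE of the mRNA differences was 0.10 to 0.21 on the log2 scale.

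The wider pathway, from lists of other mitochondrial genes, held more genes that fell than rose in NB4 for all 8 lists with ATRA+ATO. Over all genes 32.8% were called lower and 35.4% higher in that comparison in NB4, and 29.7% lower and 30.7% higher in HL-60. With ATRA the shares over all genes were 28.6% lower and 31.3% higher in NB4, and 23.3% and 25.2% in HL-60. With ATO the shares were 19.6% lower and 21.2% higher in NB4, and 12.1% and 16.5% in HL-60. Of 79 mitochondrial ribosomal protein genes tested, 67 were called lower and 2 higher with ATRA+ATO in NB4 (median -0.61), 58 and 5 with ATRA (median -0.38) and 28 and 5 with ATO (median -0.09, which turned to 0.01 with library totals alone, 10 lower and 11 higher). In HL-60 the counts were 36 lower and 10 higher with ATRA+ATO (median -0.16), 36 and 6 with ATRA (median -0.14) and 19 and 2 with ATO (median -0.08). MRPS6, a small subunit protein, went against the list and rose in both lines with the combination (2.75 ± 0.11 and 1.05 ± 0.08), while MRPL3 was among the genes that fell in NB4 (-1.67 ± 0.07). Of 26 other genes of RNA processing and decay, 21 were lower and 1 higher with ATRA+ATO in NB4 (median -0.65), with PNPT1, the nuclease that pairs with SUPV3L1, at -1.68 ± 0.08, and 10 lower and 2 higher in HL-60 (median -0.20). Of 19 aminoacyl-tRNA synthesis genes 13 were lower and 2 higher in NB4 (median -0.63), with NARS2 at -2.00 ± 0.08, and 7 lower and 4 higher in HL-60 (median -0.10). Of 15 translation factors 9 were lower and 1 higher in NB4 (median -0.53), with MTIF2 at -1.33 ± 0.09, and 2 lower and 4 higher in HL-60, a number higher near the share over all genes (median 0.05, or -0.04 with library totals alone).

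The nuclear partners of the mRNAs in the respiratory chain were called in both directions with ATRA+ATO and ATRA in NB4, and more often higher than lower with ATO in NB4 and with each treatment in HL-60. Of 72 nuclear subunit genes, 31 were lower and 23 higher with ATRA+ATO in NB4 (median -0.10), 16 lower and 27 higher with ATRA (median 0.08) and 3 lower and 21 higher with ATO (median 0.10). Over all NB4 genes 32.8, 28.6 and 19.6% were called lower and 35.4, 31.3 and 21.2% higher with ATRA+ATO, ATRA and ATO. In HL-60 the counts were 7 lower and 31 higher with ATRA+ATO (median 0.11), 3 and 35 with ATRA (median 0.17) and 2 and 9 with ATO (median 0.05), where 29.7, 23.3 and 12.1% of all genes were called lower and 30.7, 25.2 and 16.5% higher. The 9 higher with ATO in HL-60 are a smaller share than that of all genes. With ATO, where 13 and 12 of the 13 mRNAs fell, the nuclear subunit gene COX5B was among those that rose in NB4 (0.47 ± 0.08), and ATP5MC1, of the ATP synthase ring, fell in both (-0.23 ± 0.08 and -0.36 ± 0.06). Of 8 markers of mitochondrial mass, such as citrate synthase and porins, the chaperonin gene HSPD1 fell by 1.70 ± 0.06 with ATRA+ATO in NB4 on the log2 scale. In HL-60 6 were lower and 1 higher with ATRA+ATO (median -0.19), 6 lower with ATRA (median -0.30) and 5 lower with ATO (median -0.14). Of the other genes of mitochondrial DNA maintenance 8 of 16 were lower and 3 higher with ATRA+ATO in NB4 (median -0.21; 32.8% and 35.4% of all genes) and 7 lower and 5 higher in HL-60 (median -0.11), the number higher in HL-60 being near the share over all genes there, 30.7%; TK2, a thymidine kinase, rose in both (1.96 ± 0.12 and 0.80 ± 0.12).

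Among the nuclear regulators, PPARGC1A, the coactivator PGC-1 alpha, was measured in HL-60 and near 0 in NB4. In HL-60 it had 25.2, 21.9 and 25.2 scaled CPM with ATRA+ATO, 9.62, 9.40 and 9.07 with ATRA and 3.88, 3.48 and 3.05 with ATO, against 1.11, 0.884 and 0.766 in untreated cells, with no overlap between any of the groups. The log2 changes were 4.73 ± 0.14, 3.36 ± 0.15 and 1.93 ± 0.16 (adjusted p of at most 5.14e-09). In NB4 it was at or below 0.0983 in every library and was not tested. ESRRA, an orphan nuclear receptor that works with it, rose with ATRA+ATO in both lines (0.90 ± 0.07 and 0.90 ± 0.08), and PPRC1, a related coactivator, fell in both (-1.50 ± 0.08 and -0.45 ± 0.05). Of the 7 regulators tested in NB4 6 were lower and 1 higher with ATRA+ATO (median -0.74), where 32.8% of all genes were called lower and 35.4% higher. Of the 8 in HL-60 3 were lower and 3 higher (median -0.07), where 29.7% of all genes were called lower and 30.7% higher. Both HL-60 numbers were near the shares over all genes.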

How the data were processed

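The deposited table holds whole-number counts per gene for 24 libraries. Per the labels' protocols, poly(A) RNA was selected with oligo(dT), made into cDNA by random priming and sequenced in pairs; the submitters' processing notes name fastp, HISAT2, featureCounts, DESeq2 and GRCh38. The sources used here name no strand setting, annotation release or treatment of mates. Counts of 1 to 9 were even in 74.4% of cases and those of 500 or more in 51.5%; whether mates were counted separately could not be settled, and counts halved were tried.

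Groups came from the labels. Pairs of libraries of a group differed by 4.77 to 39.3 chi-square per degree of freedom, so none differed by as little as sampling noise. edgeR 4.0.16 (R 4.3.3) was run with its default filter, TMM scaling and the quasi-likelihood test, per line for treatments and interactions (12 libraries, 8 residual degrees of freedom) and on all 24 for differences between lines (16). Adjusted p is Benjamini-Hochberg over all genes of a comparison, and called means below 0.05. Scaled CPM were computed from the counts on TMM library sizes of all 24 libraries. The steps were tested on simulated data. Alternatives used DESeq2 1.42.0, limma-voom 3.58.1, other scalings, filters, fits and each library left out. Batch differences are medians over genes of log2(scaled CPM + 0.5), treated minus control of 1 batch. They match libraries by the number in the label alone, so they are not known to be matched experiments.

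Gene IDs and lengths came from GENCODE v29, and promoters from RefSeq. FASTKD5, TWNK, MTERF3 and TOP1MT were not searched for motifs. The members and lists were chosen with earlier results of these data known. Library values were printed for MT-ND6, the mRNAs with the largest and smallest change per treatment, and machinery genes with up to 3 of the largest called changes per direction (mean of at least 5 CPM), with their values in the other line or treatments beside them. Line differences and interactions name up to 3 called members per direction, and other lists up to 2. Some marker and pathway results are not reported here.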

Additional observations from a re-analysis of the deposited data

Results flagged for a closer look

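Listed here are 16 of the called line differences in response, up to 3 of the largest per treatment and direction, with mRNAs and machinery taken apart. More were called, as given above. Each value is from the test of the difference itself (NB4 minus HL-60, log2 ± SE, edgeR quasi-likelihood test, adjusted over all genes). The response to ATRA was higher in NB4 for TOP1MT (2.12 ± 0.12, adjusted p = 1.53e-15) and MT-CO3 (0.26 ± 0.10, 0.0397). The call of MT-CO3 was lost with some single libraries left out. It was lower in NB4 for MTERF3 (-0.83 ± 0.11, 2.53e-07), POLRMT (-0.68 ± 0.15, 0.000371) and MTPAP (-0.64 ± 0.10, 3.20e-06).

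The response to ATO was lower in NB4 for MT-ND6 (-0.92 ± 0.21, adjusted p = 0.00231), MTERF3 (-0.59 ± 0.11, 0.000218), MGME1 (-0.36 ± 0.11, 0.0296) and SSBP1 (-0.25 ± 0.07, 0.0217). The calls of MGME1 and SSBP1 were lost with some single libraries left out. The response to ATRA+ATO was higher in NB4 for TOP1MT (2.46 ± 0.12, adjusted p = 2.98e-17). It was lower for TRMT10C (-1.49 ± 0.14, 8.87e-11), MTERF3 (-1.47 ± 0.11, 9.95e-13), FASTKD2 (-1.47 ± 0.10, 2.60e-13), MT-ND5 (-0.87 ± 0.16, 4.50e-05), MT-ND2 (-0.76 ± 0.15, 7.91e-05) and MT-ATP8 (-0.75 ± 0.16, 0.000297). TOP1MT and FASTKD2 moved in opposite directions in the lines with ATRA+ATO, and TOP1MT also with ATRA. MTERF3 appears under all 3 treatments, which share their untreated libraries.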

How the results depend on the processing

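Of 11232 log2 changes of members under the alternatives, 10727 kept their direction and side of the threshold, 314 were no longer called, 190 were newly called and 1 turned: SSBP1 between the untreated lines was 0.01 ± 0.05 (adjusted p = 0.944) with library totals alone. Of 624 counts of called members, 567 stayed within 1.5 times. The others follow; the cause was not tested. Without a filter on low counts, the mRNAs called were 9 with ATRA in NB4, 5 for NB4 ATRA+ATO against ATO, 6 for the NB4 interaction, 11 with ATRA in HL-60 and 9 for the line difference to ATO, where 5 machinery genes were called. With adjusted p below 0.01 the counts of mRNAs were 0 for NB4 ATRA+ATO against ATO, 4 for HL-60 ATRA and 0 for the line difference to ATRA, and 1 machinery gene was called for the line difference to ATO. DESeq2 gave 0 mRNAs for NB4 ATRA+ATO against ATO, 4 for HL-60 ATRA and 2 mRNAs and 5 machinery genes for the line difference to ATO. With all 24 libraries in 1 fit the mRNAs called were 2 for NB4 ATRA+ATO against ATO, and in HL-60 2 with ATRA, 3 with ATRA+ATO, 3 for ATRA+ATO against ATRA and 6 for the interaction. With only the groups compared, 3 were called for NB4 ATRA+ATO against ATO, and 4 mRNAs and 5 machinery genes for the line difference to ATO. HL-60 ATRA gave 4 mRNAs with library totals alone and 4 with at least 1 CPM in 3 libraries. The line difference to ATO gave 2 mRNAs with limma-voom, 2 with DESeq2 size factors, 2 with library totals alone and 3 with counts halved, and that to ATRA gave 0 with scaling from nuclear genes. The batch as a replicate block gave 3 mRNAs (2 higher, 1 lower) for NB4 ATRA+ATO against ATO and 3 for the line difference to ATO, and moved no other count of called members by over 1.5 times. Deviations of same-batch libraries from their group means correlated by -0.259 to 0.107 (NB4) or -0.0922 to 0.195 (HL-60). These correlations, taken over many genes at once, give no sign that the numbers pair the libraries. For the mRNAs alone they say little: the mRNA sum was highest in replicate 1 of each NB4 group but ATO. The correlations cannot show whether libraries with the same number were cultured or prepared together.

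With each library left out, mRNAs called ranged from 2 to 9 for NB4 ATRA, 0 to 2 for NB4 ATRA+ATO against ATO, 4 to 9 for HL-60 ATRA, 3 to 8 for HL-60 ATRA+ATO, 0 to 1 for the line difference to ATRA and 1 to 2 for that to ATO. Machinery genes called ranged from 3 to 5 for the NB4 interaction and from 1 to 4 for the line difference to ATO. With 3 libraries per group, a change that missed the threshold is not shown to be absent.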

Other observations

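The mitochondrial ribosomal RNAs and tRNAs are not among the members, and the libraries were selected for poly(A). MT-RNR2, the large ribosomal RNA, had 3702, 3597 and 3593 scaled CPM with ATRA+ATO, 5909, 5213 and 5440 with ATRA and 2540, 2564 and 2226 with ATO in NB4, against 2873, 2557 and 2494 in untreated cells. Its log2 change was 0.45 ± 0.06 (SE; adjusted p = 1.83e-06), 1.08 ± 0.06 (2.14e-12) and -0.13 ± 0.06 (0.123). It rose with ATRA+ATO in NB4, where 13 of 13 mRNAs fell. Its ratio to the mRNA sum was 0.137 ± 0.0151 with ATRA+ATO, 0.116 ± 0.0110 with ATRA and 0.0901 ± 0.00635 with ATO, against 0.0626 ± 0.00421 untreated (SD, n = 3). MT-RNR2 in HL-60 had 3038, 2865 and 2996 with ATRA+ATO, 2435, 2556 and 2442 with ATRA and 2246, 2348 and 2104 with ATO, against 2206, 2389 and 2155 (0.42 ± 0.04, 0.15 ± 0.04 and 0.00 ± 0.04).

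MT-RNR1, the small ribosomal RNA, fell with the combination in both lines and rose with ATRA in NB4. It had 839, 767 and 673 with ATRA+ATO in NB4 against 1086, 1025 and 949 in untreated cells (-0.43 ± 0.08, adjusted p = 8.74e-05), and 480, 478 and 469 in HL-60 against 544, 712 and 560 (-0.33 ± 0.08, adjusted p = 0.00102). With ATRA it had 1539, 1407 and 1208 in NB4 (0.46 ± 0.08, adjusted p = 5.62e-05) and 540, 531 and 540 in HL-60 (-0.16 ± 0.08, adjusted p = 0.0951). With ATO it had 933, 896 and 813 in NB4 (-0.23 ± 0.08, adjusted p = 0.0345) and 675, 671 and 540 in HL-60 (0.07 ± 0.08, adjusted p = 0.580). The 22 tRNA genes together had 16.2 ± 1.32 with ATRA+ATO, 25.1 ± 5.34 with ATRA and 12.1 ± 3.42 with ATO in NB4, against 18.8 ± 4.79 untreated.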
